A study of Vitis vinifera with 16 samples.

Results

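The genes described here are the ethylene synthesis genes and the ethylene response factors (ERFs) of grape ovules. They are 105 of the 13411 genes in the deposited table and were chosen by their descriptions: 1-aminocyclopropane-1-carboxylate (ACC) synthase and oxidase, ethylene receptor, ethylene-insensitive protein, ethylene-responsive transcription factor and dehydration-responsive element-binding (DREB) protein. The rule uses no measured value, but it was drawn up with earlier results of these data known. By description they fall into 2 ACC synthases, 5 ACC oxidases, 14 ACC oxidase homologs, 2 ethylene receptors, 3 ethylene-insensitive proteins, 61 ERFs, 10 AP2-like factors and 8 DREB factors.

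The samples were ovules of Vitis vinifera from the varieties Zhongpu No. 18 (ZP) and Muscat Hamburg (MH), at 4 stages: day 35, day 45, day 55 and day 61 after flowering. Each of the 8 variety and day groups had 2 libraries, 16 in all, and no treatment or engineered allele is labelled in either variety. The study is about lignin in ovules of seeded and stenospermocarpic grapes, in which a fertilised seed stops growing early. The labels do not say which variety is which. They also do not say that libraries came from separate plants, so the tests weigh differences against a spread that may be technical only. Samples were frozen with the skin kept on.

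Plants make ethylene from S-adenosylmethionine: ACC synthase forms ACC, usually the limiting step, and ACC oxidase turns ACC into ethylene. Receptors on the endoplasmic reticulum keep the pathway off through the kinase CTR1 until ethylene binds; EIN2 then passes the signal to the nuclear factors EIN3 and EIN3-like 1, which switch on ERF genes. The ERFs belong to the AP2/ERF family of DNA-binding proteins, which also holds the DREB factors of drought, cold and heat responses and the AP2-like factors of flower, ovule and embryo development. Many ERF genes answer to wounding, pathogens or low oxygen as well as to ethylene, so a family name is not a readout of ethylene.

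Levels below are FPKM, sequenced fragments of a gene normalised to transcript length and to library size, given for the 2 libraries of a group. Differences are in log2(FPKM + 1), ± standard error. Those between varieties are ZP minus MH, those over time are the last day minus the first, and both understate the change of genes with low levels. Tests covered the 99 of 105 genes with 2 or more libraries at 1 FPKM or above: 58 met this in both varieties, 34 in ZP only and 7 in MH only. The threshold for a call was an adjusted p of 0.05 (limma, Benjamini-Hochberg over all 12637 genes tested). The 6 untested genes, among them ACC synthase 3 (LOC100258512), DREB2A (LOC100253373) and RAP2-2 (LOC100259331), had group means of at most 1.15 FPKM.

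Depths estimated from the steps between low FPKM values were 20036218 to 29999825 fragments a library. The varieties differed widely as a whole, with 88.7% of all genes called on the average over the 4 days. The 49 genes of the embryo and endosperm storage list held 0.11% to 1.21% of the summed FPKM in ZP libraries, against 17% to 46.2% in MH libraries. The 73 genes of the berry flesh and skin list summed to 1103 to 3144 FPKM in ZP and to 228 to 619 FPKM in MH, and the 15 green tissue genes to 264 to 3160 FPKM in ZP and 22.6 to 638 FPKM in MH; both lists were highest at day 35 in both varieties, and at most 12 flesh and skin genes and 1 green tissue gene were at 0 in a library. Of the storage genes, 2 to 12 were at 0 in a ZP library and 1 to 6 in an MH library. Anthocyanidin reductase (ANR) and TRANSPARENT TESTA 16 (LOC100244209), seed coat genes in Arabidopsis, were present in every library, at 306 to 689 and 59.5 to 75.7 FPKM in ZP and at 387 to 759 and 1.83 to 25.4 FPKM in MH. The part of these tissues in the results below was not tested, and in whole ovules fewer cells of a type cannot be told apart from less RNA per cell.

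Most ethylene synthesis genes stood higher in ZP. The tested ACC synthase (LOC100263876, chromosome 2) had 14.8 and 13.8 FPKM in ZP, against 3.61 and 2.74 FPKM in MH, at day 35. At day 45 it had 22.6 and 25.7 FPKM in ZP, against 0.932 and 0.999 FPKM in MH, and at day 61 it had 9.82 and 10.6 FPKM in ZP, against 0.802 and 0.560 FPKM in MH. All 8 ZP libraries lay above all 8 MH libraries, and the gap was widest at day 45 (3.68 ± 0.15, adjusted p = 1.59e-10). On the average over the 4 days it was 2.90 ± 0.08 (adjusted p = 3.29e-13). In each variety its 2 libraries of day 61 were the lowest.

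Of the 5 genes described as ACC oxidases, 3 carry the KEGG orthology of that enzyme in the deposited annotation. The first (LOC100232928, chromosome 10) had 12.4 and 10.0 FPKM in ZP, against 5.35 and 4.51 FPKM in MH, at day 35, and 53.3 and 52.4 FPKM in ZP, against 2.02 and 2.13 FPKM in MH, at day 45. The varieties did not overlap on any day (average 2.59 ± 0.08, adjusted p = 1.26e-12), and the gene overlaps another annotated gene, so part of its reads may be its neighbour's. ACC oxidase 2 (LOC100256784, chromosome 12) began slightly lower in ZP: it had 25.1 and 23.4 FPKM in ZP, against 29.7 and 30.1 FPKM in MH, at day 35. By day 55 it had reached 172 and 178 FPKM in ZP, against 22.5 and 18.6 FPKM in MH (3.04 ± 0.14, adjusted p = 2.15e-10), and at day 61 it had 58.3 and 52.8 FPKM in ZP, against 13.8 and 18.8 FPKM in MH. Its change over the days differed between the varieties by 2.01 ± 0.19 (adjusted p = 1.09e-06). The third, ACC oxidase 1 (LOC100257676), stayed at or below 1.81 FPKM in ZP and 3.75 FPKM in MH and was lower in ZP (-0.77 ± 0.13, adjusted p = 5.94e-05), with overlapping libraries. It too overlaps another gene.

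The other 2, described as ACC oxidase-like 1, carry the orthologies of feruloyl-CoA 6-hydroxylase (LOC100244182) and salicylic acid 3-hydroxylase (LOC100260734), related dioxygenases with other substrates. They had the 2 largest positive averages of all tested members. LOC100244182 ran at 16.8 to 33.0 FPKM in ZP libraries and at 0.207 to 0.795 FPKM in MH libraries (4.27 ± 0.07, adjusted p = 3.97e-15). LOC100260734 ran at 13.8 to 43.3 FPKM in ZP and at 0.702 to 2.64 FPKM in MH (3.64 ± 0.07, adjusted p = 2.41e-14). Their functions in grape are not given in the deposited annotation beyond these matches.

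**Figure D1:**
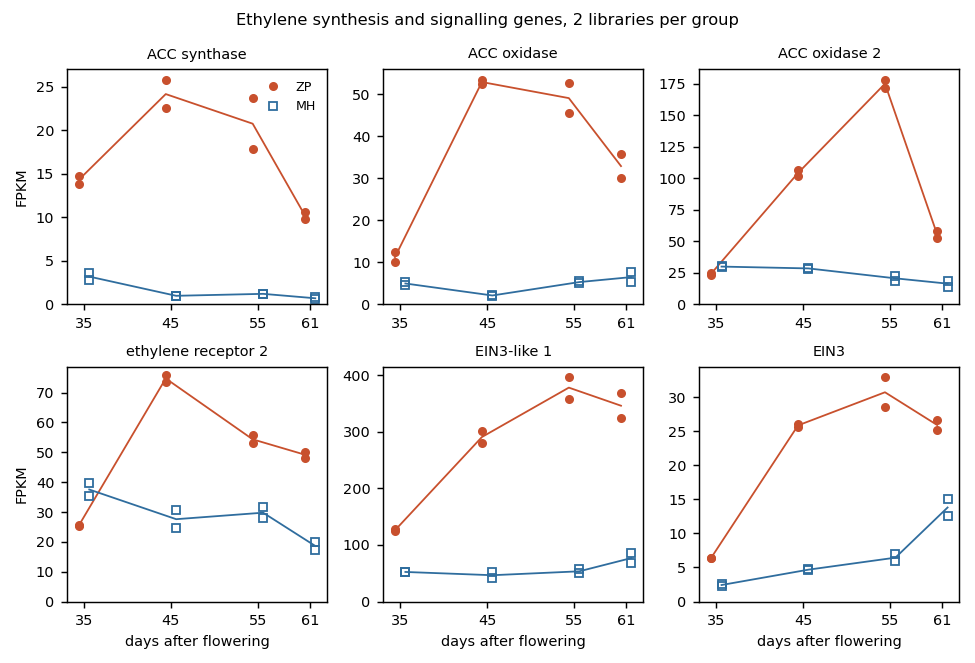
FPKM by days after flowering for ACC synthase, both higher ACC oxidases, ethylene receptor 2, EIN3-like 1 and EIN3; each point is a library (filled circles ZP, open squares MH) and lines join group means. ACC oxidase 2 and the receptor lie lower in ZP than in MH at day 35 and higher from day 45 on, while ACC synthase, ACC oxidase and EIN3-like 1 lie higher in ZP on all 4 days.

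The receptor shifted in the same way. Ethylene receptor 2 (LOC100254638, chromosome 5) had 25.7 and 25.2 FPKM in ZP, against 35.4 and 39.7 FPKM in MH, at day 35 (-0.54 ± 0.12, adjusted p = 0.00136). At day 45 it had 75.8 and 73.7 FPKM in ZP, against 24.5 and 30.7 FPKM in MH (1.41 ± 0.12, adjusted p = 1.92e-07). Libraries of the varieties were apart on both days, in opposite directions, and the change from day 35 to day 61 differed by 1.90 ± 0.18 (adjusted p = 7.6e-07). The average over the days, 0.77 ± 0.06, fell to 0.06 and was no longer called after median-ratio scaling, which sets libraries to a common median gene ratio. A 2nd gene described as ethylene receptor 2 (LOC100267285) never passed 2 FPKM in a group mean and was not called on the average.

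Of the nuclear factors, EIN3-like 1 (LOC100250496, chromosome 13) was the most abundant signalling gene. It had 128 and 124 FPKM in ZP, against 51.7 and 53.0 FPKM in MH, at day 35, and 398 and 359 FPKM in ZP, against 50.1 and 56.8 FPKM in MH, at day 55. No ZP library fell within the MH range on any day, and it rose by 1.45 ± 0.14 over the days in ZP (adjusted p = 8.8e-07). All 3 ethylene-insensitive genes, this one among them, also rose in MH, with a median of 0.54. As reported, the change was called greater upward in ZP for 1 of these 3 genes. After median-ratio scaling it was called so for 0 of them and in the opposite direction for 2. EIN3 (LOC100256432, chromosome 6) had 6.46 and 6.35 FPKM in ZP, against 2.56 and 2.29 FPKM in MH, at day 35, and 26.7 and 25.2 FPKM in ZP, against 12.5 and 15.1 FPKM in MH, at day 61. It rose in both varieties, by 1.86 ± 0.12 in ZP (adjusted p = 2.04e-08) and by 2.11 ± 0.12 in MH (adjusted p = 6.62e-09), and was higher in ZP on the average (1.58 ± 0.06, adjusted p = 1.51e-11). Its difference at day 61 was the median of the 3 ethylene-insensitive genes, 0.87 as reported. That median was 0.06 after median-ratio scaling and 0.21 after quantile normalization, with 1 gene higher, 1 lower and 1 not called under each.

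EIN2 (LOC100256742, chromosome 8), the membrane protein that passes the signal on to them, differed little. It had 27.8 to 55.1 FPKM in ZP libraries and 27.6 to 45.9 FPKM in MH libraries, which overlap. Its average difference of 0.20 ± 0.08 (adjusted p = 0.0336) was not called after leaving out any of 11 libraries, with adjusted p between 0.0516 and 0.0851 and values between 0.15 and 0.21. These were ZP replicate 1 of all 4 days, ZP replicate 2 of days 35, 45 and 61 and MH replicate 1 of all 4 days. It turned to -0.51 after median-ratio scaling.

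Genes of the pathway outside the chosen descriptions were taken from a fixed list of 20, of which 19 were tested. On the average 12 were higher in ZP and 3 lower, and 4 were not called, where 61.6% of all genes tested were higher and 27% lower; after median-ratio scaling the counts were 10 and 8. Those with the highest means were S-adenosylmethionine synthases METK2 (1.01 ± 0.07), METK4 (1.30 ± 0.06) and METK5, which was not called (0.00 ± 0.07) but was lower in ZP after median-ratio scaling (-0.72, adjusted p = 3.17e-06), and the decarboxylases SAMDC (2.09 ± 0.09) and LOC100265287 (1.74 ± 0.10), which send the same substrate towards polyamines. After their values were seen, 2 further groups are named for their place in the pathway. Both EIN3-binding F-box genes, which in Arabidopsis target EIN3 for breakdown and are themselves switched on by it, were higher in ZP: LOC100265253 by 1.31 ± 0.12 and LOC100267990 by 1.25 ± 0.08. LOC100265253 had 44.9 and 47.9 FPKM in ZP, against 34.6 and 45.9 FPKM in MH, at day 35, and 147 and 146 FPKM in ZP, against 32.0 and 45.7 FPKM in MH, at day 61. Of 5 genes described as CTR1, the pathway's brake, 1 was higher and 2 lower in ZP, the 2 lower being LOC100254015 (-0.82 ± 0.07) and LOC100251651 (-0.98 ± 0.07). For LOC100251651 and for the higher gene, LOC132254441, that description rests only on a match to the Arabidopsis protein.

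The 14 ACC oxidase homologs are 2-oxoglutarate dioxygenases named for their likeness to the enzyme, and all carry other KEGG orthologies. On the average 10 were higher in ZP and 4 lower, shares of 71.4% and 28.6% that lie near the 61.6% and 27% of all genes tested. Together with LOC100244182, 9 of them form a run of 10 genes over 159.7 kb of chromosome 5 (7500564 to 7660294, positions equal to those of RefSeq assembly ASM3070453v1). Of these 10 genes, 8 were higher in ZP and 2 lower. Only LOC100259642, LOC100266596 and LOC109122663 reached 1 FPKM in 2 or more libraries of both varieties. The rest of the run entered the test through 1 variety alone, so the filter itself sets part of these counts. LOC109122663 of that run had 22.5 to 57.1 FPKM in ZP libraries, all above the 7.35 to 12.6 FPKM of MH libraries (1.78 ± 0.07, adjusted p = 2.41e-11); it overlaps its neighbours. LOC100259272 on chromosome 1, outside the run, had 20.3 to 51.7 FPKM in ZP and 7.26 to 13.1 FPKM in MH (1.62 ± 0.11, adjusted p = 4.42e-09).

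A member of the run crossed over. LOC100259642 had 6.66 and 6.38 FPKM in ZP, against 19.6 and 19.4 FPKM in MH, at day 35 (-1.45 ± 0.14, adjusted p = 8.52e-07), and 24.3 and 23.3 FPKM in ZP, against 4.21 and 4.42 FPKM in MH, at day 61 (2.22 ± 0.14, adjusted p = 1.04e-08). It rose in ZP while it fell in MH, a difference of 3.67 ± 0.20 between the 2 changes (adjusted p = 7.98e-09). LOC100251563 on chromosome 7, chosen after its values were seen, did the reverse. It had 5.34 and 5.06 FPKM in ZP, against 0.291 and 0.356 FPKM in MH, at day 35 (2.23 ± 0.12, adjusted p = 1.88e-09), and 0.116 and 0.115 FPKM in ZP, against 22.9 and 27.9 FPKM in MH, at day 61 (-4.56 ± 0.12, adjusted p = 3.3e-12). Neighbours with the same description may share reads, and how these were handled is not given, so levels of single genes in the run are uncertain.

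**Figure D2:**
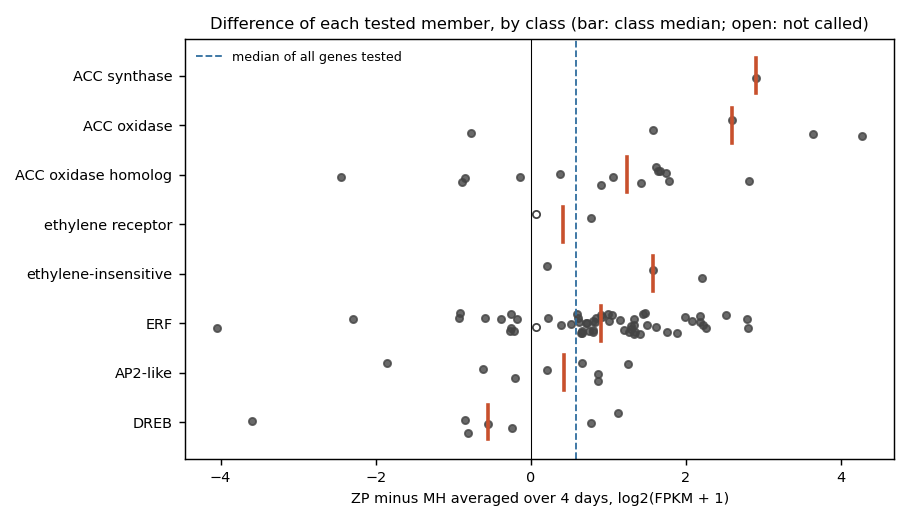
ZP minus MH averaged over 4 days, in log2(FPKM + 1), for each of the 99 tested members by class; filled points were called, open points were not, the thick bar is the class median and the dashed line the median of all genes tested. The class described as ACC oxidases has a median of 2.59 and includes LOC100244182 and LOC100260734, which carry the KEGG orthologies of other enzymes. Ethylene-insensitive proteins have a median of 1.58, the DREB factors a median of -0.55, and all genes a median of 0.58.

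Of the 99 tested members, 73 were higher in ZP on the average and 24 lower, with 2 not called, a median of 0.86 against 0.58 over all genes. The called share of 98% stands beside 88.7% for all genes, and the 73.7% higher beside 61.6%. Of these members 34 entered the test through ZP alone and 7 through MH alone. Over the 58 that reached 1 FPKM in both varieties, a count added after the data were seen, 39 were higher (67.2%) and 17 lower (29.3%), beside 60.1% and 25.7% of the 9315 genes that did so. After median-ratio scaling 60 of the 99 were higher and 28 lower, with medians of 0.51 for the members and 0.10 for all genes. Without a test, 35 of the tested members had every ZP library above every MH library, as did 30.3% of all genes, and 5 had every ZP library below, as did 8.59%.

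The difference depended on the day. At day 35, 44 members were higher in ZP and 21 lower (median 0.18), where 76.9% of all genes were called, 45.8% higher and 31.1% lower, so the members' 44.4% higher lies near the background. At day 45, 70 were higher and 19 lower (median 0.98), where 78.9% of all genes were called, 59.8% higher and 19.1% lower; the members' counts were 51 and 26 after quantile normalization. At day 55, 71 were higher and 17 lower (median 1.24), where 78.2% of all genes were called, 56.9% higher and 21.3% lower; the members' counts were 55 and 27 after quantile normalization. At day 61, 67 were higher and 18 lower (median 0.99), where 74.6% of all genes were called, 55.5% higher and 19.2% lower; the members' counts were 55 and 31 after median-ratio scaling. The difference between the varieties varied over the days in 90 members (F-test of 3 interaction terms), as in 78.9% of all genes.

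Within ZP 65 members rose from day 35 to day 61 and 11 fell, a median of 0.72, where 66.9% of all genes were called, 31.9% rising and 35% falling, with a median of -0.01. After median-ratio scaling 66 rose and 8 fell. Of the 58 reaching 1 FPKM in both varieties 39 rose in ZP and 7 fell, where 31.2% and 37.6% of all such genes did. Within MH 30 rose and 25 fell, a median of 0.03, where 68% of all genes were called, 15.8% rising and 52.1% falling, with a median of -0.43; after median-ratio scaling 47 rose and 17 fell, so the MH counts hang on the scaling. The 2 changes differed in 72 members, 55 with the greater change upward in ZP and 17 in MH, where 69.1% of all genes were called, 48.5% and 20.7%; the members' counts were 48 and 25 after median-ratio scaling. In ZP 45.5% of the tested members had their highest mean at day 55 and 31.3% at day 61, against 24.4% and 21.1% of all genes; day 35 was highest for 10.1% of members and 36.9% of all genes. In MH day 35 was highest for 33.3% of members and 60.3% of all genes.

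The ERFs made up 59 of the 99 tested members. Of these ERFs, 46 rose in ZP over the days and 4 fell, and 15 rose in MH and 16 fell, with medians of 0.88 in ZP and -0.07 in MH. After median-ratio scaling the counts were 46 and 4 in ZP and 22 and 10 in MH. Among all genes 31.9% rose and 35% fell in ZP, and 15.8% rose and 52.1% fell in MH. Many of the 59 ERFs entered the test through ZP alone. Their MH levels were low, so the filter itself sets part of the contrast between the varieties. Summed over all 61 ERFs, the level was 687 ± 7.75 FPKM in ZP and 936 ± 114 FPKM in MH at day 35. At day 61 the sum was 1305 ± 4.81 FPKM in ZP and 952 ± 34.3 FPKM in MH (SD, n = 2 libraries each). Median-ratio scaling divides the ZP libraries of day 61 by 1.17 and 1.18 and the MH libraries by 0.63 and 0.676. The order of the sums at day 61 thus hangs on the scaling. Of the 8 tested AP2-like factors 3 rose in ZP and 2 fell, against 6 that rose and 1 that fell in MH. Of the 7 tested DREB factors 1 rose and 1 fell in ZP, against 3 that rose and 1 that fell in MH.

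**Figure D3:**
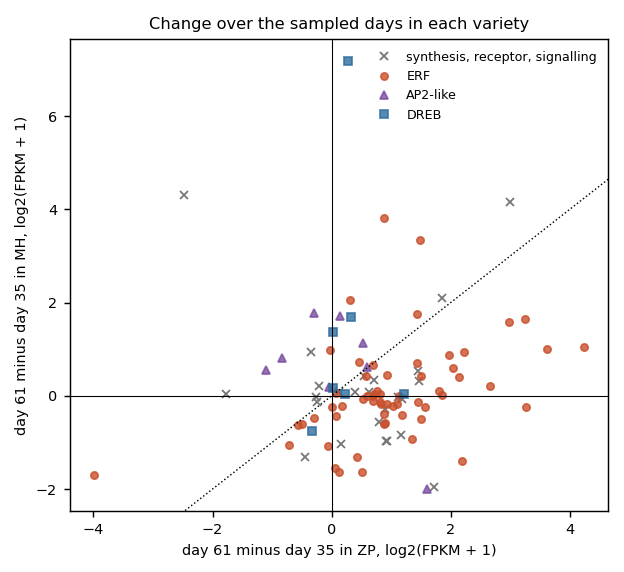
Day 61 minus day 35 in ZP (horizontal axis) and in MH (vertical axis), in log2(FPKM + 1), for the 99 tested members, marked by class; the dotted line is equal change. Most ERFs lie right of zero, with a median of 0.88 in ZP and -0.07 in MH, and DREB2D lies alone at the top, at 7.19 in MH and 0.27 in ZP.

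The largest run of ERF genes was on chromosome 16, where 13 genes described as ERF5, ERF105, ERF104-like or ERF2 lie within 415.7 kb (5374756 to 5790496). In Arabidopsis ERF5, ERF104 and ERF105 are close relatives that act in immunity and stress responses. Averaged over the days 12 of the 13 were higher in ZP and 1 lower, and their median was 1.33. Among all genes 61.6% were higher and 27% lower (median 0.58). Only LOC100244353, LOC100254504, LOC100254616 and LOC100259623 reached 1 FPKM in 2 or more libraries of both varieties. The rest of the run entered the test through ZP alone, so the filter itself sets part of these counts. Over the days 12 rose in ZP and none fell, and 4 rose and 2 fell in MH, where 31.9% of all genes rose in ZP and 15.8% in MH. All 13 had their highest ZP mean at day 55; without ZP replicate 2 of that day 11 did. Neighbours with the same description may share reads here too, so single levels are uncertain.

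The median of the 13 group means was 1.12 FPKM in ZP and 0.407 FPKM in MH at day 35, and 8.95 FPKM in ZP and 0.412 FPKM in MH at day 55. The highest, ERF5 (LOC100254504), had 4.84 and 4.53 FPKM in ZP, against 1.64 and 1.48 FPKM in MH, at day 35. At day 55 it had 45.6 and 95.1 FPKM in ZP, against 3.88 and 2.29 FPKM in MH (4.06 ± 0.26, adjusted p = 8.38e-09). The ZP libraries of that day lay far apart, and both exceeded every MH library. ERF104-like (LOC100259623) overlapped at day 35, with 2.15 and 2.34 FPKM in ZP, against 3.02 and 1.97 FPKM in MH. At day 55 it had 38.0 and 36.7 FPKM in ZP, against 0.360 and 0.779 FPKM in MH (4.62 ± 0.17, adjusted p = 2.7e-11), and its change over the days differed by 3.59 ± 0.23 (adjusted p = 3.39e-08). ERF105-like (LOC100249507) differed by 2.26 ± 0.07 and ERF2 (LOC100244163) by 2.17 ± 0.09 on the average, both with all ZP libraries above all MH libraries.

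**Figure D4:**
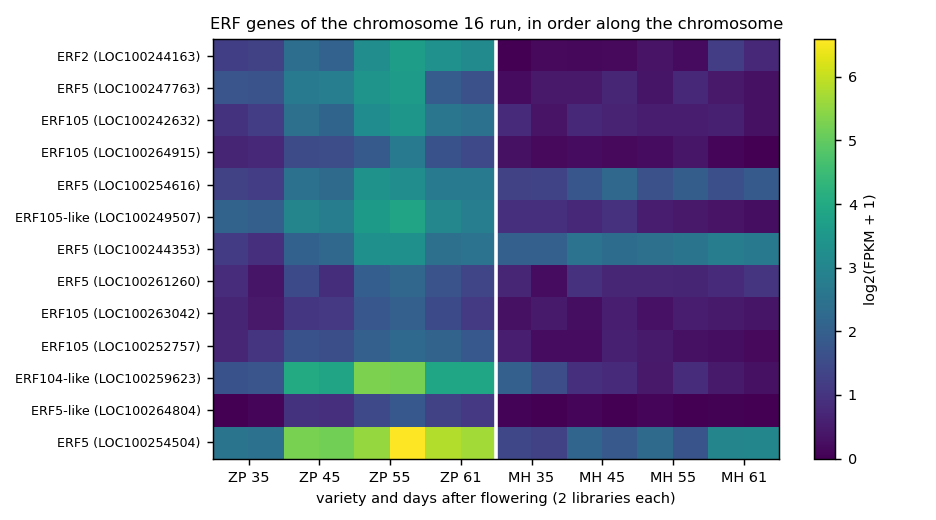
Heat map of log2(FPKM + 1) for the 13 ERF genes of the chromosome 16 run in the 16 libraries, ZP left of the white line and MH right of it, by day. In ZP the colour brightens to day 55, where the median of the group means is 8.95 FPKM, and in MH most genes stay near 0, with a median of 0.412 FPKM at that day.

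Outside the run, ERF4 (LOC100242144), of a type that represses its targets in Arabidopsis, had 2.73 and 2.26 FPKM in ZP, against 0.900 and 0.522 FPKM in MH, at day 35, and 25.2 and 27.6 FPKM in ZP, against 5.22 and 3.17 FPKM in MH, at day 61 (average 2.52 ± 0.13, adjusted p = 2.64e-10). ERF12 (LOC100243417), a repressor in Arabidopsis too, averaged 2.22 ± 0.08 higher. ERF1-like (LOC104882330) had 8.65 and 8.31 FPKM in ZP, against 0.163 and 0.168 FPKM in MH, at day 55 (average 2.08 ± 0.05, adjusted p = 6.64e-14). RAP2-4 (LOC100245515) stood higher in ZP on every day, with 68.7 and 70.2 FPKM in ZP, against 14.5 and 18.3 FPKM in MH, at day 35, and 43.6 and 40.2 FPKM in ZP, against 6.30 and 8.41 FPKM in MH, at day 61 (average 2.18 ± 0.09). All libraries of ERF12, ERF1-like and RAP2-4 were apart, and those of ERF4 overlapped across days.

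An ERF2 gene on chromosome 2 (LOC100254640) had 1.53 and 1.90 FPKM in ZP, against 5.36 and 3.68 FPKM in MH, at day 35. By day 55 it had 22.4 and 32.1 FPKM in ZP, against 2.74 and 1.56 FPKM in MH (3.17 ± 0.22, adjusted p = 1.93e-08). It thus lay below MH at day 35 and above it later, and its change over the days differed by 3.50 ± 0.32 (adjusted p = 6.42e-07). ERF011-like (LOC100245542, chromosome 18) had 2.63 and 3.16 FPKM in ZP, against 5.79 and 3.61 FPKM in MH, at day 35, and 72.4 and 72.4 FPKM in ZP, against 11.5 and 9.70 FPKM in MH, at day 61 (2.66 ± 0.22, adjusted p = 1.12e-07). Its rise in ZP, 4.24 ± 0.22 (adjusted p = 2.01e-09), exceeded that in MH by 3.19 ± 0.31 (adjusted p = 1.29e-06).

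The group VII ERFs, which in Arabidopsis drive the response to low oxygen, differed among themselves, with RAP2-3 and ERF073 lower in ZP. RAP2-3 (LOC100249982, chromosome 5) had 8.49 and 8.49 FPKM in ZP, against 320 and 214 FPKM in MH, at day 35 (-4.79 ± 0.27, adjusted p = 3.08e-09), and 15.9 and 26.3 FPKM in ZP, against 220 and 176 FPKM in MH, at day 61. The highest ZP library, 26.3 FPKM, lay far below the lowest MH library, 176 FPKM, and the average of -4.04 ± 0.14 was the lowest of all tested members (adjusted p = 3.11e-12). It rose in ZP over the days by 1.18 ± 0.27 (adjusted p = 0.00168). ERF073 (LOC100252208, chromosome 7) ran at 15.0 to 40.9 FPKM in ZP and at 114 to 181 FPKM in MH, with no overlap (-2.29 ± 0.07, adjusted p = 6.92e-13). RAP2-12 (LOC100248027, chromosome 9) ran the other way, at 243 to 379 FPKM in ZP and 114 to 298 FPKM in MH, which overlap; its average of 0.80 ± 0.07 fell to 0.07 and was not called after median-ratio scaling, and its day 61 difference of 0.50 ± 0.15 (adjusted p = 0.00711) turned to -0.35 (adjusted p = 0.0121). Without MH replicate 1 of day 61 that difference was 0.32 and not called (adjusted p = 0.0945). These 3, EIN3-like 1 and ERF3-like (LOC100241392) were the 5 members with the highest means. ERF3-like had 52.3 and 103 FPKM in ZP, against 65.4 and 35.7 FPKM in MH, at day 55, and these libraries overlap. Its average of 0.64 ± 0.16 turned to -0.08 after median-ratio scaling. At day 61 it was higher in ZP by 1.68 ± 0.31 (adjusted p = 0.000262), or by 0.84 (adjusted p = 0.052) after that scaling.

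Lower in ZP by less were ERF118 (LOC104882341), by -0.93 ± 0.11, and an ERF4 gene on chromosome 19 (LOC100243603), by -0.91 ± 0.09. This ERF4 gene stood at 19.2 and 18.2 FPKM in ZP, against 54.3 and 48.0 FPKM in MH, at day 61.

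Of the 7 tested DREB factors 2 were higher in ZP and 5 lower, under each scaling tried, where 61.6% of all genes were higher and 27% lower as reported; the class median was -0.55. DREB2D (LOC100264271, chromosome 18, 11295404 to 11296511) showed the largest change over time. It had 0.215 and 0.142 FPKM in ZP, against 0.0893 and 0.205 FPKM in MH, at day 35, both near the 0.1 to 0.15 FPKM that 3 fragments make in a transcript of 1 kb. At day 45 it had 0.0338 and 0.307 FPKM in ZP, against 6.21 and 5.98 FPKM in MH, at day 55 it had 0.146 and 0.361 FPKM in ZP, against 35.4 and 38.8 FPKM in MH, and at day 61 it had 0.344 and 0.509 FPKM in ZP, against 163 and 169 FPKM in MH. The libraries of the varieties overlapped at day 35 and were apart on every later day (day 61: -6.87 ± 0.14, adjusted p = 7.22e-13), and the change over the days differed by -6.91 ± 0.20 (adjusted p = 4.98e-11). DREB2D made up 87.6% of the summed DREB level of MH at day 61. DREB2C (LOC100267216), a heat and drought factor in Arabidopsis, had 5.33 and 5.44 FPKM in ZP, against 16.0 and 16.6 FPKM in MH, at day 61 (-1.44 ± 0.15, adjusted p = 8.79e-07) and rose in MH by 1.69 ± 0.15. DREB3 (LOC100243009) averaged -0.85 ± 0.07, with every ZP library below every MH library. Another gene described as DREB3 (LOC100252531) went the other way at low levels, with 0.705 to 1.73 FPKM in ZP and at most 0.154 FPKM in MH. In MH, storage genes took 20.7% and 17% of summed FPKM at day 35, 46.2% and 41.2% at day 45, 42.4% and 37.1% at day 55, and 39.7% and 39.2% at day 61. The part of this share in the DREB2D levels was not tested.

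**Figure D5:**
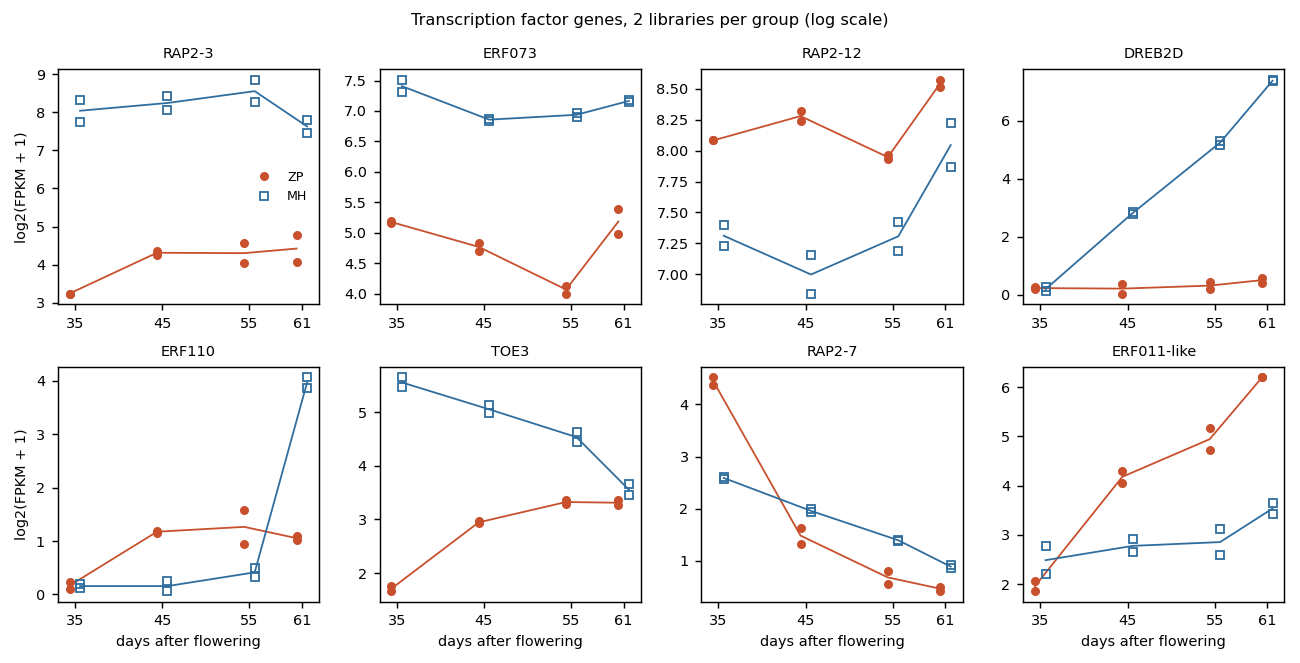
log2(FPKM + 1) by days after flowering for 8 transcription factor genes; filled circles are ZP libraries, open squares MH libraries, and lines join group means, with a separate vertical range in each panel. RAP2-3, ERF073 and TOE3 lie lower in ZP, RAP2-12 lies higher on these axes but turns to -0.35 at day 61 after median-ratio scaling, DREB2D and ERF110 climb in MH and ERF011-like in ZP, and RAP2-7 falls in both.

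ERF110 (LOC100262406, chromosome 18) rose late in MH. It had 0.0747 and 0.173 FPKM in ZP, against 0.0815 and 0.150 FPKM in MH, at day 35, and 0.932 and 2.00 FPKM in ZP, against 0.259 and 0.411 FPKM in MH, at day 55. At day 61 it had 1.02 and 1.14 FPKM in ZP, against 13.6 and 15.8 FPKM in MH (-2.92 ± 0.17, adjusted p = 2.65e-09). ZP lay above MH at days 45 and 55 and below it at day 61, and the change over the days differed by -2.93 ± 0.23 (adjusted p = 2.11e-07).

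Among the AP2-like factors, TOE3 (LOC100263240, chromosome 13), of a group that microRNA miR172 represses in Arabidopsis, had 2.37 and 2.18 FPKM in ZP, against 49.2 and 43.0 FPKM in MH, at day 35 (-3.84 ± 0.12, adjusted p = 1.87e-11). At day 61 it had 9.24 and 8.61 FPKM in ZP, against 11.6 and 9.94 FPKM in MH. In the reported FPKM the varieties thus came close, as it rose by 1.60 ± 0.12 in ZP (adjusted p = 7.22e-08) and fell by 2.00 on the log2 scale in MH (adjusted p = 8.7e-09), a difference of 3.60 ± 0.17 (adjusted p = 1.98e-09). Median-ratio scaling sets them further apart at day 61. It divides the ZP libraries of that day by 1.17 and 1.18 and the MH libraries by 0.63 and 0.676. RAP2-7 (LOC100244807), counted with the ERFs by its description but known as TOE1 in Arabidopsis, of the same miR172 group, had 21.9 and 19.8 FPKM in ZP, against 5.08 and 4.96 FPKM in MH, at day 35 (1.86 ± 0.13, adjusted p = 2.3e-08), and 0.340 and 0.419 FPKM in ZP, against 0.890 and 0.810 FPKM in MH, at day 61. It fell in both varieties, and its fall was the greater in ZP by -2.29 ± 0.18 (adjusted p = 2.04e-07). Another gene described as RAP2-7 (LOC100246815) was lower in ZP at day 35. It had a mean of 44.3 FPKM in MH on that day and at most 22.3 FPKM in any ZP library. Its differences of 0.29 at day 55 and 0.35 at day 61 turned to -0.52 and -0.46 after median-ratio scaling.

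The other 7 tested AP2-like genes, described as AINTEGUMENTA (ANT), AINTEGUMENTA-like (AIL) or BABY BOOM (BBM), factors of ovule and embryo growth in Arabidopsis, or by an Arabidopsis locus, differed from -0.61 to 1.25 on the average, 5 higher in ZP and 2 lower. Over the days 6 of them rose in MH and none fell, while 2 rose and 2 fell in ZP. Among all genes 61.6% were higher and 27% lower on the average. The average of AIL1 (LOC100259954), 0.20 as reported, turned to -0.38 after median-ratio scaling and to -0.42 after quantile normalization, each a call. With TOE3 counted in, the 8 tested AP2-like genes were 5 higher and 3 lower as reported. They were 4 and 4 after median-ratio scaling, and 3 and 4 after quantile normalization. Over the days 15.8% of all genes rose and 52.1% fell in MH, and 31.9% rose and 35% fell in ZP. AIL5 (LOC100259877), chosen after its values were seen, had 0.813 and 0.736 FPKM in ZP, against 0.206 and 0.307 FPKM in MH, at day 35, and 0.693 and 0.244 FPKM in ZP, against 3.96 and 2.79 FPKM in MH, at day 61. The libraries did not overlap on either day, and its change over the days differed by -2.08 ± 0.20 (adjusted p = 1.42e-06).

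The remaining 41 tested ERFs that are not named by rule differed from -0.59 to 1.99 on the average, 35 higher in ZP and 6 lower, with group means up to 132 FPKM; 61.6% of all genes were higher and 27% lower. Over the days 31 of them rose in ZP and 2 fell, and 7 rose and 10 fell in MH. Among all genes 31.9% rose and 35% fell in ZP, and 15.8% rose and 52.1% fell in MH. Many of these ERFs entered the test through ZP alone. The remaining 4 tested DREB genes stayed under 2 FPKM in every group mean, with 2 higher and 2 lower in ZP. The remaining 11 tested ACC oxidase homologs differed from -2.45 to 2.81, 7 higher and 4 lower, and these small counts are read against the same shares of all genes. Many of these homologs entered the test through 1 variety alone.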

How the data were processed

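Total RNA of 16 ovule libraries was sequenced on an Illumina instrument, per the labels. Per the file headers, the deposited values are FPKM. The same table gives positions and descriptions of the genes. The aligner, counter, genome build and use of strand are not given in the sources used here. A further 2 genes match the descriptions but are not reported here. All 105 members have the same positions as in RefSeq assembly ASM3070453v1. All 16 library columns were used. Groups came from the labels. The members and lists were chosen with earlier results of these data known.

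Genes reaching 1 FPKM in 2 or more libraries entered a fit of log2(FPKM + 1) with limma 3.58.1 in R 4.3.3 (trended variance, 8 group means, 8 residual degrees of freedom), two-sided, with Benjamini-Hochberg adjustment over 12637 genes. FPKM are not counts, so no count model was used. The fit was tested on simulated data. One fragment in a 1 kb transcript is worth 0.0333 to 0.0499 FPKM, and such floors cover counting error only.

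Named genes were the synthesis, receptor and signalling genes with a group mean of at least 5 FPKM (3 homologs), the 8 transcription factors with the largest average difference each way and the 3 with the largest interaction each way at that level, the 5 members with the highest means, and ERF110 and ERF011-like. Alternatives were a pseudocount of 0.1, no filter, median-ratio scaling, quantile normalization, totals without the storage list, a replicate block (over all libraries and, added later, within each variety), fits of only the groups compared and leaving out each library.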

Additional observations from a re-analysis of the deposited data

Results flagged for a closer look

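The change from day 35 to day 61 differed between ZP and MH, by a test of the difference itself in limma, in 72 members, and the variety difference varied over the days in 90 members. Among the genes described above, the change in ZP exceeded that in MH, on the log2(FPKM + 1) scale, by 3.67 in LOC100259642, 3.60 in TOE3 (LOC100263240), 3.59 in ERF104-like (LOC100259623), 3.50 in ERF2 (LOC100254640), 3.19 in ERF011-like (LOC100245542), 2.01 in ACC oxidase 2 (LOC100256784) and 1.90 in ethylene receptor 2 (LOC100254638). The change in ZP minus that in MH was -6.91 in DREB2D (LOC100264271), -6.79 in LOC100251563, -2.93 in ERF110 (LOC100262406), -2.29 in RAP2-7 (LOC100244807) and -2.08 in AIL5 (LOC100259877). These are shown beside 69.1% of all genes called for the same contrast.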

How the results depend on the processing

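FPKM are shares of a library, and storage transcripts fill much of the MH libraries. The median ZP minus MH difference of all genes, 0.58 as reported, was 0.10 after median-ratio scaling, 0.06 after quantile normalization and 0.42 with totals without the storage list. Members lower in ZP numbered 27 at day 55 after quantile normalization (17 as reported) and 31 after median-ratio scaling or 32 after quantile normalization at day 61 (18 as reported). Members rising in MH numbered 47 and 50 under these scalings (30 as reported), and 14 fell after quantile normalization (25 as reported). The average of ERF3-like (LOC100241392) turned to -0.08 after median-ratio scaling. That of EIN2 (LOC100256742) turned to -0.51, -0.31 and -0.05 under median-ratio scaling, quantile normalization and totals without the storage list, and that of METK5 to -0.72, -0.42 and -0.25, or -0.04 to 0.04 when single libraries were left out. All 3 METK5 values under the scalings were calls. The day 61 difference of RAP2-12 (LOC100248027) turned to -0.35 after median-ratio scaling. Over the 99 tested members and 8 comparisons there were 627 calls. Median-ratio scaling turned 6 of them into calls of the opposite sign and lost 68, quantile normalization turned 9 and lost 83, and totals without the storage list turned 0 and lost 24, with 9 members turned in all; the cause was not tested.

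Replicate numbers are shared in the labels. Same-numbered libraries deviated together within MH (correlations of 0.41 to 0.73 over 6 pairs of days) and weakly within ZP (0.08 to 0.27 over 6), but not between ZP and MH (-0.6 to 0.08 over 16), so 11 of 28 pairs of groups were over 0.1 and the numbers were not taken to pair the varieties. The errors given treat all libraries as independent. With the replicate block 66 members were called at day 35 (65 as reported), and with a block within each variety, added after seeing the data, 72; neither changed a call of a named gene. Members rising in MH then numbered 32 and falling 27. Leaving out a ZP library of day 55, chosen after seeing the data, left 13 or 11 of the 13 chromosome 16 genes highest on that day. With 2 libraries a group, small differences are poorly resolved.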
